A study of Mus musculus with 3 samples.

Results

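CCGG motifs that MethylRAD reads carried at places where the mouse reference genome GRCm38 has other bases were examined in differentiating embryonic stem cells (ESCs). The deposited lists give each motif a position and an alignment type. Positions of type S in at least 1 of the 3 libraries, read as CCGG through a substitution from the reference, are called S positions. Positions of type M in each library that lists them, aligned at the motif without a change, are called M positions and served for comparison. Of the 1026125 CCGG positions listed in any library, 26406 were S positions (2.57%, 95% Wilson interval 2.54 to 2.60%) and 998949 were M positions. The lists held 2231048 positions when CCAGG and CCTGG were counted too. The type was checked against the genome sequence. At 26294 S positions (99.6%) the 4 reference bases differed from CCGG by exactly 1 substitution, at 112 they differed otherwise and at 0 they were CCGG, whereas 998948 of the M positions were CCGG in the reference. Reads were aligned with at most 1 mismatch, which by itself leaves little room for more than 1 substitution.

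The cells were E14Tg2A, an established mouse ESC line. Undifferentiated cells grew with leukemia inhibitory factor (day 0), and differentiation for 7 days was started by removing this factor and adding retinoic acid, either without pargyline (untreated) or with 3 mM pargyline (treated), an inhibitor of the histone demethylase LSD1. A single culture line was used and each condition had 1 library, so no difference between conditions could be set against a spread between replicates, and the cell states were not checked against marker genes because no expression data were used. A list holds positions with at least 5 reads, and a missing position may have had up to 4 reads or may be listed under another motif at the same coordinate.

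FspEI, the enzyme of MethylRAD, needs a methylated or hydroxymethylated cytosine and releases a short fragment around it. A correctly read and aligned CCGG thus reports such a cytosine at the motif or within the same fragment. This holds whether or not the reference has the motif there. The reference genome was assembled from another inbred strain than that of the ESC line, and the genomes of inbred mouse strains differ by single-base substitutions that are dense in some chromosome segments and rare in others. Methylated CpGs also tend to mutate to TpG or CpA over time, which makes these changes common between genomes.

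S positions were a small and similar part of each library. Undifferentiated cells had 20338 among 870345 CCGG positions (2.34%, 2.31 to 2.37%), untreated cells 21335 among 882955 (2.42%, 2.38 to 2.45%) and treated cells 22522 among 892366 (2.52%, 2.49 to 2.56%). Of the CCGG reads, S positions held 734236 of 31614085 in undifferentiated cells (2.32%), 847503 of 36654600 in untreated cells (2.31%) and 613336 of 25767119 in treated cells (2.38%). The share of positions was lowest in the undifferentiated and highest in the treated sample, whereas the share of reads was nearly the same in the 3 samples. The intervals cover counting error over positions only. They take positions as independent, although S positions were clustered along chromosomes (below), and they hold no spread between libraries. PCR copies of a fragment were not separated either. Among the entries listed as CCGG, 31 S positions had another type in another library, 23 of them type M. This count says nothing of S positions listed in a single library or listed under another motif elsewhere.

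Changes at the CpG of the motif were the most frequent. The reference had CTGG at 8434 S positions (31.9%) and CCAG at 8179 (31.0%), which are the same change read on opposite strands and are written T2C and A3G, with the reference base first, the position counted from 1 at the motif's start on the plus strand, and the base of the reads last. Together they made up 16613 S positions (62.9%, 62.3 to 63.5%), and between 56.3% and 65.4% on single autosomes. CAGG and CCTG (A2C and T3G) followed with 4425 positions (16.8%), CGGG and CCCG (G2C and C3G) with 2567 (9.72%), TCGG and CCGA (T1C and A4G) with 1577 (5.97%), ACGG and CCGT (A1C and T4G) with 799 (3.03%), and GCGG and CCGC (G1C and C4G) with 313 (1.19%). Within a pair the counts were close for 2213 positions of CAGG and 2212 of CCTG, and farther apart for 171 of CCGC and 142 of GCGG.

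The kinds of substitution differed in how many libraries shared them. Of the positions at CTGG or CCAG, 71.5% were listed in all 3 libraries (70.8 to 72.2%) and 5.53% in the treated sample only. Of those at CAGG or CCTG, 42.6% were listed in all 3 libraries (41.1 to 44.0%) and 33.7% in the treated sample only. The positions at ACGG or CCGT resembled the latter, with 47.8% in all 3 libraries (44.4 to 51.3%) and 28.8% in the treated sample only, whereas CGGG or CCCG (67.3%), TCGG or CCGA (69.3%) and GCGG or CCGC (64.5%) resembled the CpG changes in their share in all 3 libraries. The median depth at CAGG or CCTG was 26 reads in undifferentiated, 23 in untreated and 12 in treated cells, at ACGG or CCGT it was 27, 30 and 15 reads, and at CTGG or CCAG it was 27, 30 and 24 reads. The A-to-C and T-to-G changes (A2C, T3G, A1C and T4G) thus stood apart from the other changes by frequent listing in the treated sample only. In the untreated sample only, CAGG or CCTG had 10.3% of its positions, ACGG or CCGT 5.51% and GCGG or CCGC 7.03%. The A-to-C and T-to-G changes made up 1720 of the 3066 S positions of the treated sample alone (56.1%). They made up 500 of the 1333 of the untreated sample alone (37.5%) and 2266 of the 17171 shared by the 3 libraries (13.2%).

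S positions were present on every autosome, and chromosome X had few. On autosomes their share of CCGG positions had a median of 2.73% and ran from 1.41% on chromosome 10 (759 of 53739, 1.32 to 1.52%) to 4.09% on chromosome 14 (1634 of 39976, 3.90 to 4.29%). Chromosomes 7 (3.58%, 2150 positions) and 8 (3.40%, 1937 positions) were next to chromosome 14, and chromosomes 11 (1.82%) and 16 (1.94%) were next to chromosome 10. On chromosome X, 137 of 28314 positions were S positions (0.484%, 0.409 to 0.572%), below each autosome, and on chromosome Y 5 of 1290 were. Chromosome X also had fewer reads at M positions, with a median of 15, 17 and 14 reads in the undifferentiated, untreated and treated samples against 27, 30 and 23 on autosomes. Its S positions had medians of 16, 14 and 11 reads. The part of this lower depth in the low share was not tested.

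Within chromosomes the S positions were unevenly spread, and a part of them lay in blocks. The genome was divided into bins of 1 Mb, and the 2506 bins with at least 100 CCGG positions were classed. In the median bin 1.83% of CCGG positions were S positions, with quartiles of 0.475% and 3.62% and a maximum of 20.7%. A bin was called S-rich from 2 times the overall share (5.15%) and S-poor up to 0.25 times (0.643%). The 359 S-rich bins held 10593 S positions, 40.1% of all, with 11.8% of the CCGG positions, and 8.74% of their CCGG positions were S positions. These bins were chosen by their share, so a share above that of all positions follows from the cut. The 1418 other classed bins held 14992 S positions, 56.8% of all. The 729 S-poor bins held 655 S positions among 279194 CCGG positions (0.235%), and 353 of the classed bins, with 88370 CCGG positions, had 0. M positions were spread more evenly, with a coefficient of variation per bin of 0.631 against 1.24 for S positions.

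Adjacent bins resembled each other. The Pearson correlation of the S share between bins was 0.593 at a distance of 1 Mb (n = 2321 pairs of bins), 0.369 at 2 Mb (n = 2290), 0.191 at 5 Mb (n = 2234) and 0.111 at 10 Mb (n = 2147), and pairs of bins share the libraries and, in part, base composition. Of the S-rich bins, 254 (70.8%) adjoined another S-rich bin and 55 (15.3%) adjoined an S-poor bin. Runs of at least 3 S-rich bins formed 34 blocks with 180 bins and 6032 S positions (22.8%). The longest, with 15 bins, was chr15:30000001-45000000 with 468 S positions among 4480 CCGG positions (10.4%), followed by chr7:45000001-59000000 with 518 among 4617 (11.2%), chr14:7000001-20000000 with 356 among 3122 (11.4%) and chr8:33000001-44000000 with 375 among 3353 (11.2%). Chromosome 14 had 38 S-rich bins of 114 classed, chromosomes 7 and 8 had 36 each, chromosomes 10 and 11 had 7 each, and chromosome X had 0 of 139.

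S-poor bins also lay in runs, and 93 blocks of at least 3 bins held 480 of them. On autosomes the longest was chr14:86000001-99000000, with 4 S positions among 2291 CCGG positions (0.175%), on the chromosome with the highest share. In chr10:72000001-82000000 there were 21 S positions among 7364 CCGG positions (0.285%), and in chr3:43000001-51000000 there were 0 among 1393. On chromosome X, 99 bins were S-poor, and its longest blocks, chrX:93000001-107000000 and chrX:150000001-164000000, held 8 of 3724 and 7 of 2871 positions. The few S positions of S-poor bins were of another make-up. In S-poor bins 67.2% were A-to-C or T-to-G changes (63.5 to 70.7%), against 16.2% in S-rich bins (15.5 to 16.9%), and 26.1% were listed in all 3 libraries (22.9 to 29.6%), against 67.8% in S-rich bins (66.9 to 68.7%). Their median depth in the treated sample was 8 reads, against 22 reads in S-rich bins. S-poor bins were chosen for few S positions, so kinds that are spread more evenly take a larger share there by construction. In counts, A-to-C and T-to-G changes were 440 in S-poor bins, with 279194 CCGG positions, and 1713 in S-rich bins, with 121183.

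Spacing was also examined on a smaller scale. The median distance from an S position to the next on an autosome was 23253 bp, and 30.5% of these distances were within 10 kb. These distances pool bins of different S density and were not compared with those of M positions. The nearest other CCGG position beyond 32 bp, the approximate length of a fragment released by FspEI, was an S position for 9.35% of the S positions (9.01 to 9.71%), for 5.36% of the M positions when each bin was weighted by its S positions, and for 2.33% of all M positions. Within 32 bp, where the same fragments can be read, 1582 S positions had an M position (5.99%) and 107 had another S position. Of these 1582, 40.4% were A-to-C or T-to-G changes and 35.0% were listed in all 3 libraries, against 18.5% and 66.9% of the S positions farther from M positions.

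Among the bins with at least 100 CCGG positions, the 5 with the highest share of S positions lay on chromosomes 7, 8, 13 and 4. In chr7:53000001-54000000, which has no protein-coding gene, 23 of 111 positions were S positions (20.7%, 14.2 to 29.2%), with 18, 17 and 21 of them in the undifferentiated, untreated and treated samples. In chr8:37000001-38000000, which holds Sgcz (a sarcoglycan of muscle membranes), 25 of 132 were (18.9%, 13.2 to 26.5%), with 24, 19 and 16 in the samples. In chr7:48000001-49000000, with the Mrgpr receptor genes of sensory neurons and mast cells (Mrgprb1, Mrgprb2, Mrgprb3, Mrgprb4, Mrgprb5, Mrgprb8, Mrgprx1 and Mrgprx2) and with Csrp3, E2f8, Nav2 and Zdhhc13, 46 of 248 were (18.5%, 14.2 to 23.9%), with 36, 39 and 34 in the samples. The intervals of these bins overlapped, so that their order was not resolved by the counts. In chr13:76000001-77000000 (with Arsk, Fam81b, Mctp1, Rfesd and Ttc37 among its genes) the share was 18.2% (29 of 159), and in chr4:77000001-78000000, inside the receptor phosphatase gene Ptprd, it was 17.8% (18 of 101).

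The deepest S position shared by the 3 libraries in each of these bins is shown with its 30 reference bases of the plus strand of GRCm38, the reference motif in capitals. On chromosome 7 at 53284886 the substitution was A4G, with 52, 94 and 77 reads in the undifferentiated, untreated and treated samples, 357710 bp from the nearest annotated gene. On chromosome 8 at 37189690 it was T3G, with 59, 99 and 70 reads in intergenic sequence, in a CCTGG of the reference. Counts listed as CCTGG are nearly identical in the 3 lists, whereas these counts, listed as CCGG, differed between the samples. On chromosome 7 at 48030306 it was A3G, with 66, 60 and 52 reads, 2710 bp from Mrgprx1. By the choice of the deepest position these depths were high. In an intron of Mctp1 at 76463999 of chromosome 13 it was T2C, with 53, 83 and 49 reads, and at 77490950 of chromosome 4, in the body of Ptprd but outside its basic transcripts, it was T2C with 75, 74 and 39 reads.
chr7:53284873-53284902: atttcacgtgtgtCCGAatatctccctgtg
chr8:37189677-37189706: gcaggtgcatgagCCTGgcctgccaggagg
chr7:48030293-48030322: cctcagaactagcCCAGtaatgaacaagag
chr13:76463986-76464015: ctttcctcatctgCTGGatgtgagctaaac
chr4:77490937-77490966: tgaagctcaggtgCTGGgagcaagacaatc

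CCAGG positions, which the choice of members did not use, had the same regional pattern. The treated sample was used for the main comparison, since the lists of the other samples hold nearly identical CCAGG counts. CCAGG positions within 32 bp of an S position of CCGG were left out. Of the CCAGG positions in S-rich bins, 2414 of 103091 were read through a substitution (2.34%, 2.25 to 2.44%), against 3594 of 541733 in other classed bins (0.663%, 0.642 to 0.685%) and 162 of 240110 in S-poor bins (0.0675%, 0.0579 to 0.0787%). Across 1935 autosomal bins the S shares of CCGG and CCAGG had a Pearson correlation of 0.793 and a Spearman correlation of 0.750, where both shares come from the same library in part. In the undifferentiated list the CCAGG shares were 1.88% in S-rich, 0.548% in other and 0.0803% in S-poor bins.

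CCGG motifs of the reference were listed less often where S positions were frequent. On autosomes, 110358 of the 206279 reference motifs in S-rich bins were listed in at least 1 library (53.5%, 53.3 to 53.7%), against 66.2% in other classed bins and 66.4% in S-poor bins. In introns the rates were 61.9% in S-rich and 78.1% in S-poor bins, in distal intergenic sequence they were 47.8% and 61.2%, and in promoters they were 37.4% and 42.1%. The lower rate in S-rich bins was thus seen in introns, in intergenic sequence and, to a smaller extent, in promoters. Since the S share is taken of the listed positions, a bin with fewer listed reference motifs has a higher S share by construction, and the part of this in the difference was not tested.

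The reference assembly also holds scaffolds sequenced from other strains, which allowed a direct look at the bases of strains related to the ESC line. There were 58 scaffolds of related substrains with 18760412 bases, called related scaffolds, 46440 of these bases from the substrain of the ESC line itself. A motif was compared where the 24 bases on each side were identical and occurred once in the assembled chromosomes, so that places with a second difference nearby are missing. At 161 of 197 comparable S positions the related scaffolds had CCGG (81.7%, 75.7 to 86.5%) and at 34 they had the reference motif (17.3%). Of 415962 other reference motifs with 1 substitution from CCGG, the scaffolds had CCGG at 119 (0.0286%, 0.0239 to 0.0342%). Among S positions shared by the 3 libraries it was 122 of 135 (90.4%, 84.2 to 94.3%), and among those listed in the treated sample only it was 3 of 19 (15.8%, 5.52 to 37.6%). It was 8 of 9 for the undifferentiated sample only and 2 of 6 for the untreated sample only.

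The match to the related scaffolds differed between kinds of substitution. It was 108 of 122 at CTGG or CCAG (88.5%), 24 of 25 at CGGG or CCCG and 11 of 13 at TCGG or CCGA, but 13 of 30 at CAGG or CCTG (43.3%, 27.4 to 60.8%). At ACGG or CCGT it was 4 of 6 and at GCGG or CCGC 1 of 1, too few to place. Conversely, of 280 motifs that are CCGG in the related scaffolds and 1 substitution away from it in the reference, 161 were listed as S positions (57.5%, 51.6 to 63.2%), while of 9751 motifs that are CCGG in both, 7395 were listed (75.8%). Of 349 motifs that are CCGG in the reference and not in the related scaffolds, 61 were listed (17.5%, 13.9 to 21.8%). For scaffolds of NOD, a strain of another origin, 410 of 618 comparable S positions had CCGG (66.3%, 62.5 to 70.0%). At the 32 S positions comparable with both, 13 had CCGG in both, 10 in the related scaffolds only and 1 in the NOD scaffolds only.

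For the following comparisons M positions were weighted so that each bin counted as often as it held S positions. With all kinds pooled, S positions were less frequent in promoters and exons. Within 1 kb of a transcription start lay 1640 S positions (6.21%, 5.93 to 6.51%), against 8.87% of M positions, and in exons outside promoters and untranslated regions (UTRs) lay 864 (3.27%, 3.06 to 3.49%), against 6.87%. Both shares were below those of M positions on each of the 19 autosomes. Some kinds of S position were more frequent in promoters, with 11.3% at CGGG or CCCG (10.1 to 12.5%) and 13.2% of those within 32 bp of an M position (11.6 to 15.0%). Introns held 46.3% of S and 42.6% of M positions and distal intergenic sequence 42.2% and 39.3%, higher for S positions on each of the 19 autosomes. In 3′ UTRs the shares were 1.64% and 1.86%, in 5′ UTRs 0.0492% (13 positions) and 0.122%, and within 300 bp downstream of a gene 0.394% and 0.381%, where the interval of the S share (0.325 to 0.477%) contained that of M positions.

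The sequence around S positions was poorer in CpG. In the 500 bp around an S position the median number of other CpGs was 5, against 6 at M positions, and 15.9% of S positions had at least 10 (15.4 to 16.3%), against 22.2%. A GC content of at least 55% was found around 7.63% of S and 12.3% of M positions, and both differences had the same direction on each autosome. Repeats as marked in the reference held 14.9% of S positions (14.4 to 15.3%) and 13.8% of M positions, higher for S positions on 16 of 19 autosomes. The 13 bases on each side had another copy in the assembled chromosomes at 257 S positions (0.973%), against 3.59% of M positions, and at 76 S positions the copy surrounded a CCGG. In the reference 5984 S positions (22.7%) lay inside a CCAGG or CCTGG, and at 85 of them that motif was itself listed in some library.

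S positions were shared by the 3 libraries less often than M positions. All 3 listed 17171 S positions (65.0%, 64.4 to 65.6%) and 72.4% of the M positions of the same bins, and the share was lower for S positions on each autosome. A single library listed 21.8% of S positions against 13.6% of M positions. The excess was largest for the treated sample, which alone listed 3066 S positions (11.6%) against 5.34% of M positions. The untreated sample alone listed 5.05% against 2.98% and the undifferentiated sample alone 5.13% against 5.32%. Without A-to-C and T-to-G changes, 70.4% of S positions were in all 3 libraries and 6.35% in the treated sample only (6.03 to 6.69%). These changes had been singled out in the same data for frequent listing in the treated sample only. A smaller excess without them therefore follows from that choice. Both day 7 samples but not the undifferentiated sample listed 1668 S positions (6.32%) and 6.33% of M positions.

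Median depth was close to that of M positions. The median S position had 27 reads (26 to 27) in undifferentiated cells, 29 (28 to 29) in untreated cells and 21 (21 to 21) in treated cells, and the weighted median of M positions was 27, 30 and 23 reads. Mean depth was lower at S positions, with 36.1, 39.7 and 27.2 reads against 39.4, 46.8 and 37.5 at M positions. At positions listed in all 3 libraries the medians were equal, with 31, 37 and 28 reads for S and for M positions. Fewer than 10 reads were recorded at 15.8% of S and 15.5% of M positions in the undifferentiated sample, and at 24.3% and 18.8% in the treated sample. In the untreated sample the interval was 17.5 to 18.6% of S positions, against 15.8% of M positions. Shallow S positions were thus in excess in both day 7 samples, and more so in the treated sample. Without A-to-C and T-to-G changes, which were singled out after the data were seen, the treated median of S positions was 23 reads, equal to that of M positions. Positions listed by the treated sample alone had a median of 7 reads for S and for M positions.

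Ratios between the libraries were alike for S positions and for all CCGG positions. Log2 ratios of counts were taken at the 737469 positions listed in all 3 libraries, 17171 of them S positions, and centred on the median of all, which was 0.29 for untreated against undifferentiated, -0.22 for treated against undifferentiated and -0.50 for treated against untreated. The centred median of S positions was 0.00 (-0.02 to 0.01), 0.01 (-0.01 to 0.03) and 0.00 (-0.01 to 0.02), respectively. In the untreated against the undifferentiated sample, 2356 S positions (13.7%) were past 2-fold higher and 2722 (15.9%) past 2-fold lower, against 13.4% and 15.6% of all positions. In the treated against the undifferentiated sample, 3108 (18.1%) were higher and 2903 (16.9%) lower, against 17.9% and 16.6% of all. In the treated against the untreated sample, 1623 (9.45%) were higher and 941 (5.48%) lower, against 9.53% and 5.53% of all. Each share of S positions was near its background. With at least 20 undifferentiated reads the higher shares of S positions were 5.44%, 5.73% and 4.95% in these comparisons, again near those of all positions (5.37%, 5.78% and 4.76%). The balance of higher and lower depended on the centring, and with the deposited RPM values it was 8.96% and 21.6% of S positions for untreated against undifferentiated, 7.64% and 34.9% for treated against undifferentiated, and 4.39% and 15.0% for treated against untreated, again near all positions (8.72% and 21.2%, 7.40% and 35.2%, 4.44% and 15.2%).

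S positions were gained more often than all CCGG positions in both day 7 samples, most in the treated sample, and were lost slightly less often. Of the S positions, 3001 (11.4%, 11.0 to 11.8%) were gained in the untreated against the undifferentiated sample, with 9.52% of all CCGG positions, and 1993 (7.55%) were lost, with 8.29% of all. In the treated against the undifferentiated sample 4734 S positions (17.9%, 17.5 to 18.4%) were gained, with 12.1% of all, and 2529 (9.58%) were lost, with 9.97% of all. The gained share in the treated sample was thus the one farthest from its background. Without A-to-C and T-to-G changes it was 13.1% (12.6 to 13.5%), and that of the untreated sample was 10.6% (10.2 to 11.1%). Since these changes were singled out for frequent listing in the treated sample only, a lower gained share there follows from that choice. Weighted M positions had 11.7% and 9.31%, respectively. Among positions listed in both day 7 samples only, 11.3% of S positions (9.90 to 12.9%) and 15.9% of M positions were in promoters, against 4.86% and 6.24% among positions listed in all 3 libraries. Promoters were thus more frequent among newly listed positions of both types, and S positions had the lower share in both sets.

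S positions lay in the bodies of 6410 of 33969 genes with a CCGG position, 4838 of them protein-coding. The 10 genes with the most S positions include several long genes, and a rank by count favours genes with many CCGG positions. Gm20388, an annotation of 4434882 bp across many genes of chromosome 8, had 102 S positions among 5346 CCGG positions (1.91%, 1.57 to 2.31%), below the overall share. Nav2, which encodes a neuron navigator protein, had 76 among 552 (13.8%, 11.1 to 16.9%), with medians of 24, 19 and 15 reads in the undifferentiated, untreated and treated samples. The others had 51 in Camta1 (5.40%), 49 in Rbfox1, a splicing regulator (11.3%), 47 in Ctnna3 (12.9%), 42 in Ptprg (14.8%), 41 in Ctnnd2 (15.3%), 40 in Csmd1 (11.6%), 38 in Fhit (12.8%) and 35 among 291 in Ptprd. Apart from Gm20388 each of these genes was above the overall share, and Nav2, Ctnna3, Ptprg, Ctnnd2, Fhit and Ptprd overlap blocks of S-rich bins.

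Among the 3106 genes with at least 50 CCGG positions, 1203 had 0 S positions. Among the highest shares were those of Sfi1, a centrosomal protein gene, with 13 of 51 (25.5%, 15.5 to 38.9%), Fam234b with 14 of 65 (21.5%) and Rgs7, a regulator of G protein signalling, with 18 of 86 (20.9%, 13.7 to 30.7%). Abca3 (19.2%), Pla2g4e (18.9%), Stk3 (18.9%), Ttc39c (18.4%), Sgcz (18.1%) and Rnf150 (17.6%) were also among the 10 highest, with overlapping intervals. Sfi1 stood apart by depth, with medians of 279, 138 and 48 reads in the undifferentiated, untreated and treated samples, above the medians of all S positions in each sample. These medians cover 8, 11 and 10 listed positions, so the sets differed between the samples. The reads ran from 9 to 1257, from 7 to 1471 and from 8 to 567, respectively.

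S positions were found at some genes of the pluripotency network. In the bodies of 18 such genes and 10 kb on each side, 15 of 807 CCGG positions were S positions (1.86%, 1.13 to 3.04%), at 7 of the genes, and the interval contained the overall share. Klf2, a transcription factor of naive ESCs, had 5 of 20, all outside its body, of which a T2C position had 77, 71 and 67 reads in the undifferentiated, untreated and treated samples. Lin28a, which blocks maturation of let-7 microRNAs, had 4 of 38, of which a T1C position outside its body, in a promoter of another gene, had 119, 61 and 49 reads and a T3G position had 74, 131 and 76. Zfp42 had 2, and Prdm14, Sall4, Tbx3 and Tfcp2l1 had 1 each, while Pou5f1, Sox2, Nanog, Klf4, Klf5, Esrrb, Dppa3, Tet1, Tet2, Utf1 and Fgf4 had 0. Around 6 genes with enhancers tested in the study (Lefty1, Lefty2, Sox2, Trim28, Esrrb and Sall4), 3 of 374 positions were S positions (0.802%, 0.273 to 2.33%). This interval lay below the overall share of 2.57%. It takes neighbouring positions as independent, although the S share varied widely between bins. The share was not compared with that of the bins of these genes, so a deficit particular to them cannot be read from it. Around 8 genes of DNA methylation and its removal, 10 of 623 were (1.61%, 0.874 to 2.93%), of which Dnmt3a, a de novo methyltransferase, had 4 in introns and Tet3 had 3. The 4 Dnmt3a positions had medians of 26.5, 25.5 and 29.5 reads in the undifferentiated, untreated and treated samples. The medians of all S positions were 27, 29 and 21 reads.

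Gene families that lie in clusters differed widely in their share of S positions. Skint genes had 12 S positions among 44 (27.3%, 16.3 to 41.8%), and their bins had 21.3%. Klr genes, receptors of natural killer cells, had 8 among 70 (11.4%, 5.91 to 21.0%), above the 4.79% of their bins, and Ighv segments had 3 among 22 (13.6%), with 15.8% in their bins. Olfactory receptor genes (Olfr) had 32 among 1383 (2.31%), Vmn1r 5 among 245 (2.04%), Vmn2r 15 among 561 (2.67%), H2- genes 3 among 266 (1.13%), Zfp genes 143 among 6753 (2.12%) and Cyp genes 20 among 1004 (1.99%). Ugt genes had 3 among 76 (3.95%), Serpin genes 14 among 403 (3.47%), Krt genes 10 among 478 (2.09%), Def genes 2 among 167 (1.20%) and Igkv segments 0 among 18. The lowest shares with some S positions were those of protocadherin genes (Pcdh), with 7 among 1151 (0.608%, 0.295 to 1.25%), and Hox genes, with 4 among 612 (0.654%, 0.254 to 1.67%), and their bins had 0.903% and 0.991%. The bins include the positions of the families themselves, and no test was made.

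A few S positions had very many reads. More than 1000 reads were recorded at 7 S positions of undifferentiated, 7 of untreated and 5 of treated cells. The deepest, on chromosome 2 at 98667137 in a promoter of Gm10800, had 11053, 11330 and 11437 reads in these samples, and another at 98666652 in the same promoter had 2062, 2634 and 1997. The position at 35305464 of chromosome 9, in an intron of the non-coding Gm33838, had 7963, 8262 and 8067 reads. These 3 positions had similar counts in the samples, lay in marked repeats and had the substitution T3G. All 3 lie in a CCTGG of the reference, and CCTGG counts are nearly identical in the 3 lists, so it was not tested whether their counts are depths of each sample. The surrounding bases resemble the major satellite repeat of mouse pericentromeres, although no alignment was made, and they are shown for this shared context, with the reference motif of the plus strand of GRCm38 in capitals.
Gm10800, chr2:98667124-98667153: gcacactgaaggaCCTGgaatatggcgaga
Gm10800, chr2:98666639-98666668: gcacactgaaggaCCTGgaatatggagaga
Gm33838, chr9:35305451-35305480: gcccactgaaggaCCTGgaatatggggaga

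The other 2 of the 5 deepest S positions lay outside marked repeats. On chromosome 10 at 22142777, in an intron of E030030I06Rik, T3G was listed with 2900 reads in the undifferentiated and 2905 in the untreated sample. The treated sample listed the same coordinate as an unchanged CCTGG with 2885 reads, and an M position 4 bases before it had 2883, 4041 and 2603 reads in the 3 samples. For the same reason this count cannot be taken as a depth of the treated sample, and the absence of the S position there cannot be told apart from a change of label. On chromosome 10 at 81178151, in the body of Eef2 (translation elongation factor 2) and within 1 kb of a transcription start, A2C had 1577, 1263 and 870 reads, with the fewest in the treated sample, where the reference CCAGG around it was also listed, unchanged, with 13 reads. Among promoters of protein-coding genes, those of Gm21738 on chromosome 14 had T3G positions with 359, 477 and 349 reads at 19418649 and with 362, 275 and 280 reads at 19418766, and Sp110, a nuclear body protein gene, had an A3G position at 85598832 of chromosome 1 with 285, 173 and 130 reads, 16 bp from the transcription start. Both positions of Gm21738 lie in marked repeats and in a CCTGG of the reference, but their counts, listed as CCGG, were not nearly identical in the samples. The bases are shown for Sp110 and Eef2, the named positions near transcription starts that lay outside marked repeats.
Sp110 promoter, chr1:85598819-85598848: agcaggaagccagCCAGccacaccaattcc
Eef2, chr10:81178138-81178167: ctcatcgactctcCAGGccatgtggacttc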

How the data were processed

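MethylRAD libraries of 3 samples were analysed. The authors mapped FspEI reads to GRCm38 with Bowtie2 2.3.3, as their processing notes name it, and deposited for each position the count of uniquely mapped reads and its alignment type. The deposited RPM values are counts scaled by the mapped reads of a library and were used only in an alternative. From these lists, S and M positions of CCGG were joined by coordinate, compared with the GRCm38 sequence and annotated with GENCODE basic transcripts, promoters first and intergenic sequence last. M positions were weighted by the S positions of their 1 Mb bin. Shares have 95% Wilson intervals, and medians have order-statistic intervals. Named genes were the 10 with the most S positions, the 10 with the highest share, those of the 5 top bins, fixed lists of pluripotency, enhancer and DNA methylation genes and families by symbol, with the deepest positions. Members and lists were chosen with earlier results of these data known. Weights, annotation and intervals were tested on simulated data. Python 3.11.15, numpy 2.4.6, pandas 2.3.3 and SciPy 1.17.1 were used.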

Additional observations from a re-analysis of the deposited data

Results flagged for a closer look

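Besides S and M, the lists give CCGG positions 2 further alignment types, I and D, which were not compared with S positions. The 770 positions of these types without S are counted among all CCGG positions. Type I occurred at 414 positions in any library, and type D at 365, against 26406 for S. In the undifferentiated, untreated and treated samples, type I was listed at 145, 214 and 349 positions and type D at 136, 205 and 313, so that both were most frequent in the treated sample.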

How the results depend on the processing

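The share of S positions among CCGG positions (2.57%) was 2.38% with at least 10 reads in a library, 2.42% without S positions within 32 bp of an M position and 2.07% without A-to-C and T-to-G changes, an alternative that was chosen after the data were seen. The share of S positions in S-rich bins (40.1%) was 47.8% with bins of 0.5 Mb, 35.5% with bins of 2 Mb, 26.9% with S-rich from 3 times the overall share, 42.1% with at least 10 reads and 44.5% without these changes. The share listed in all 3 libraries (65.0%) was 80.1% with at least 10 reads, where M positions had 82.2%, 63.7% after thinning to the smallest total, where M positions had 70.2%, and 70.4% without these changes.

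The ratio of median depths of S to M positions was 1.04 instead of 1 in the undifferentiated sample with unweighted M positions, and in the treated sample (0.913) it was 0.957 without S positions near M positions and 1 without these changes. The ratio of promoter shares (0.700) was 0.835 for promoters of 3 kb on each side and 0.797 for 1 kb upstream only. The share of CTGG and CCAG (62.9%) was 69.2% among S positions in all 3 libraries and 64.3% without those near M positions. The listing rate of reference motifs in S-rich bins (53.5%) was 38.5% for all 3 libraries.

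Among S positions past 2-fold, uncentred RPM values gave 8.96% higher for untreated against undifferentiated, 7.64% higher and 34.9% lower for treated against undifferentiated, and 4.39% higher and 15.0% lower for treated against untreated. With at least 20 undifferentiated reads the higher and lower shares were 5.44% and 19.9%, 5.73% and 22.7%, and 4.95% and 5.75%, respectively, and those of all positions were 5.37% and 19.5%, 5.78% and 22.5%, and 4.76% and 5.78%. The cause of these shifts was not tested.

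No paired analysis was possible because each condition had 1 library. Differences between conditions therefore cannot be told apart from differences between libraries. The absence of a position from a list did not separate few reads from a listing under another motif, and PCR copies were not separated. The scaffolds of related substrains cover a small part of the genome, mostly from substrains other than that of the ESC line. True substitutions of the line and errors in reads or alignment were not separated for single positions, and the excess of shallow S positions in the treated sample was not traced.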
